A study of Homo sapiens with 4 samples.

Results

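The genes described here are 10 regulators of mitosis, namely the kinases AURKA, AURKB, PLK1, PLK4, NEK2, TTK and MASTL and the chromosomal passenger complex subunits INCENP, BIRC5 and CDCA8, which act together with AURKB. They were chosen by symbol, and all 10 were found among the 6828 genes of the deposited table. RNA-seq was performed in A549, a cell line of human lung adenocarcinoma, to profile genes regulated by the lncRNA USP2-AS1. Control cells (shctrl) were infected with a lentivirus expressing a control shRNA, and knockdown cells (shUSP2-AS1) with a lentivirus expressing an shRNA against USP2-AS1. Each group had 2 biological replicates, and total RNA was extracted 72 h after infection. Both shRNAs were carried by PLKO.1. The study selected infected cells with 2 µg/ml puromycin starting 24 h after infection in its functional experiments, and which USP2-AS1 shRNA gave these libraries is not given in the sources used here.

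Entry into mitosis is driven by protein kinases whose genes are transcribed mainly in G2 and M phase. The Aurora and Polo-like kinases mature the centrosomes, build the spindle and control the attachment of chromosomes to it. In the passenger complex, INCENP is the scaffold that binds and activates the kinase AURKB, and BIRC5 (survivin) and CDCA8 (borealin) bring the complex to centromeres. PLK4 starts centriole duplication, NEK2 lets the centrosomes separate, TTK (MPS1) starts the spindle assembly checkpoint, and MASTL (Greatwall) restrains the phosphatase PP2A-B55. In bulk RNA, fewer cells in G2 or M phase and less mRNA per cell cannot be told apart.

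The libraries held between 10772788 and 14120472 reads on the listed genes. Values are normalized read counts, that is reads divided by a size factor of the library. USP2-AS1 itself was measured at 23.2 and 24.2 in the shctrl replicates and at 2.10 and 6.16 in the shUSP2-AS1 replicates (log2 fold change -2.39, SE 0.56, adjusted p = 0.000597, limma). These values rest on 2 to 24 reads per library, and the groups did not overlap. The transcription factor E2F1, whose regulation by USP2-AS1 the study asked about, was at 1280.3 and 1241 in shctrl and at 276 and 304 in shUSP2-AS1 (log2 fold change -2.12, SE 0.08, adjusted p = 2.36e-13, limma). The epithelial keratins KRT7, KRT8, KRT18 and KRT19, the 4 of 6 epithelial markers analysed here, summed to 168132 to 179244 in shctrl and to 106336 to 112823 in shUSP2-AS1. KRT19 went the other way from the sum, at 3699 and 3254 in shctrl and 5689 and 5952 in shUSP2-AS1 (log2 fold change 0.75). Of 6 markers of leukocytes, fibroblasts and endothelium, COL1A1 was the 1 analysed here, at 261 and 293 in shctrl and 530.0 and 618 in shUSP2-AS1. The part of these marker changes in the results below was not tested.

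Promoters of the mitotic genes are shown first, because the cell cycle genes of G2 and M phase are known for 2 promoter elements, the CCAAT box bound by NF-Y and the cell cycle gene homology region (CHR) bound by the DREAM and MuvB complexes. RefSeq promoters (GRCh38.p14, 250 bases before to 50 after an annotated start) were at hand for 7 of the 10 genes, with 10 starts in all, and AURKA, BIRC5 and TTK had no entry. In the lines below, each of 30 bases and written 5′ to 3′ along the gene, the capitals mark the motif, which is CCAAT or its complement ATTGG, or the CHR letters TTTGAA. The lines let the letters and spacing be seen in 5 genes, and matches in PLK4 and MASTL are given by position.
PLK1, CHR, plus strand, chr16:23678848-23678877: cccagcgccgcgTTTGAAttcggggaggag
PLK1, CCAAT, plus strand, chr16:23678803-23678832: taaatccccgcggCCAATcagtggcgcgca
CDCA8, CHR, plus strand, chr1:37692481-37692510: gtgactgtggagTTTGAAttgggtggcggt
INCENP, CHR, plus strand, chr11:62123989-62124018: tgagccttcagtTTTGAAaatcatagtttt
NEK2, CCAAT, minus strand, chr1:211675639-211675668: ggcccaccgcctgCCAATagactgcgagat
AURKB, ATTGG, minus strand, chr17:8210362-8210391: gaccagcgcccagATTGGggctagtgtgct

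A CCAAT box on either strand was found in 6 of the 7 genes, all but MASTL, against 10846 of all 27305 genes with a RefSeq promoter. It was found in 7 of the 10 promoters, whereas 34.6% of all 35116 RefSeq promoters held it. The 7 promoters count the same AURKB box more than once, from neighbouring starts. The CHR, searched as TTTGAA or TTCGAA on both strands, was found in 5 of the 7 genes, against 5336 of all 27305. It was found in 5 of the 10 promoters, against 16.4% of all promoters. In PLK1, CDCA8 and INCENP the CHR began at -29, -23 and -10 relative to the start, downstream of at least 1 CCAAT box. In CDCA8 the CHR shares a base with the CCAAT box at -18. In MASTL the CHR letters lay at -248 and 3, and in PLK4 at 39. The CCAAT box of PLK4 lay at -86 from a different start, so no PLK4 promoter held both motifs. AURKB and NEK2 held CCAAT boxes and no CHR letters in these windows. The E2F letters TTTCCCGC, TTTGGCGC, TTTCGCGC and TTTGCCGC were found in 0 of the 7 genes, against 1090 of all 27305 genes and 3.31% of all promoters. Among promoters of genes called lower in shUSP2-AS1 cells, 46.5% held a CCAAT box, 20.02% a CHR and 11.1% an E2F motif. Among promoters of genes called higher, the shares were 31.4%, 13.3% and 1.44%, and among those of tested genes not called they were 33.9%, 10.4% and 4.42%. A match describes the letters and not the binding of a factor.

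**Figure D1:**
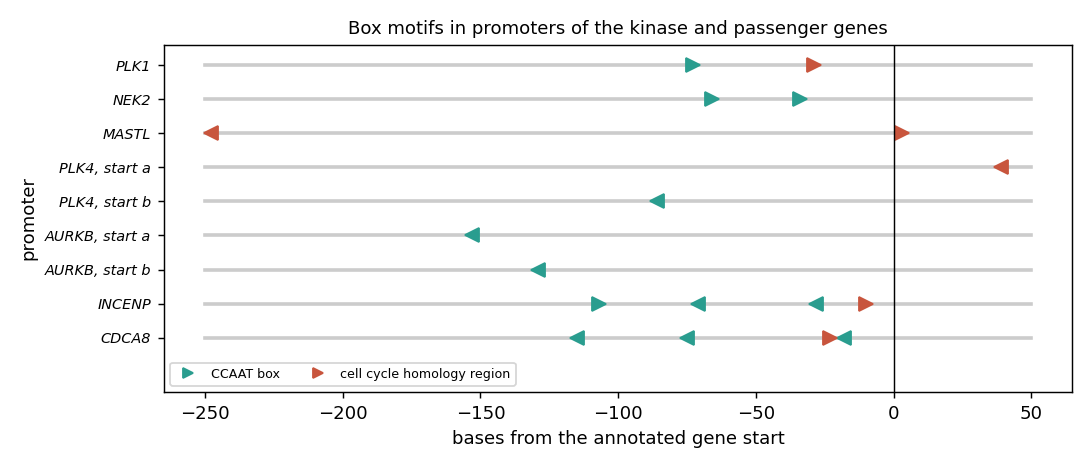
Position of motif letters in promoters of 7 genes, with the distance from the RefSeq start in bases on the x axis and 1 line per start (AURKB and PLK4 each have several, and 1 PLK4 start with no match is not drawn). Arrowheads point right for a match on the strand of the gene and left for the other strand. The CHR letters of PLK1, CDCA8 and INCENP lie between -29 and -10.

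Every one of the 10 genes was lower in both shUSP2-AS1 replicates than in either shctrl replicate. All 10 passed an adjusted p of 0.05 in limma with a log2 fold change of -1 or less, a call given to 13.5% of the 6812 genes tested, and 16.1% were called in the other direction. The balance of calls over all genes turned with the scaling, from 922 lower and 1098 higher to 1143 and 934 with RLE scaling and 1140 and 942 in DESeq2 with its own size factors. The median log2 fold change of the 10 genes was -2.27, and that of all genes tested was 0.19. Non-overlap with shUSP2-AS1 lower was common among the tested genes (49.3%). The table holds only genes with an adjusted p under 0.05 in the comparison by the authors, and in limma 6811 of the 6812 genes passed the adjusted p, so that the calls turned on the fold change. With 2 samples per group an exact permutation test of a single gene cannot go below p = 0.333. P-values in limma use a spread that is pooled over these selected genes, and not only that between the replicates of a single gene.

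**Figure D2:**
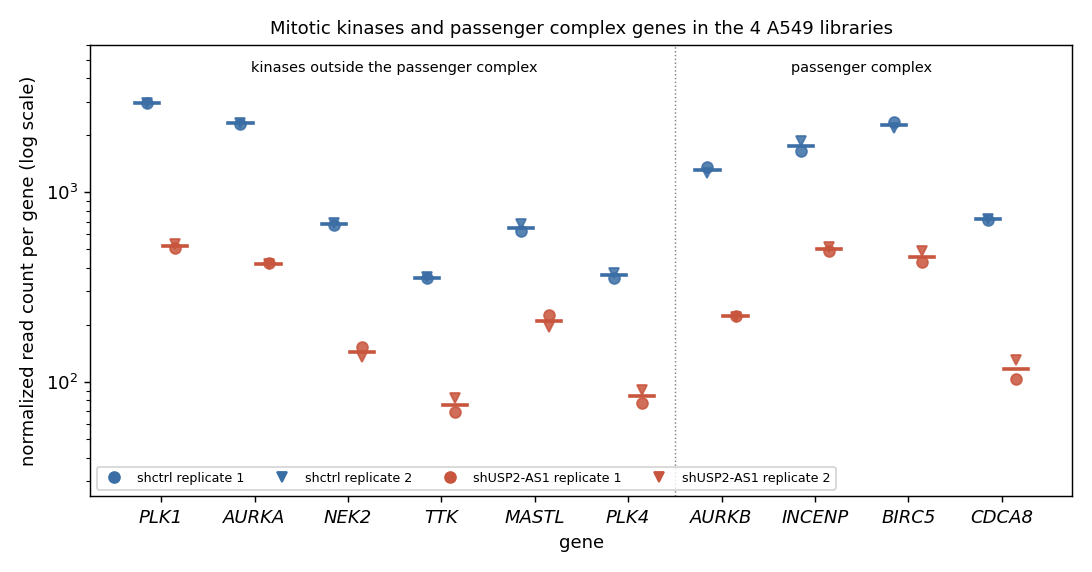
Normalized read count (log y axis) of the 10 genes in the 4 libraries, with shctrl in blue, shUSP2-AS1 in red, circles for replicate 1, triangles for replicate 2 and bars for the group mean. In all 10 genes both red points lie under both blue points.

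AURKA (ENSG00000087586, GRCh38 chromosome 20, 56369389 to 56392337, minus strand) encodes the Aurora kinase of centrosomes and spindle poles. Its normalized read count was 2296 and 2324 in shctrl and 422 and 416 in shUSP2-AS1. The replicates of a group differed by less than their counting error, and the log2 fold change was -2.46 (SE 0.07, adjusted p = 4.39e-15, limma), which left 18.1% of the shctrl level. AURKB (ENSG00000178999, chromosome 17, 8204733 to 8210600, minus strand), the Aurora kinase of centromeres and the spindle midzone, was measured at 1355 and 1268 in shctrl and at 224 and 221 in shUSP2-AS1. It fell to 17.0% of the shctrl level (log2 fold change -2.55, SE 0.08, adjusted p = 3.10e-14, limma). Both Aurora kinases were thus among the stronger decreases of the table, at rank 82 and 64 of 6812 genes ordered from the largest decrease.

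Of the other passenger complex subunits, CDCA8 (ENSG00000134690, chromosome 1, 37692481 to 37709719, plus strand) had the lowest log2 fold change of the 10 genes with all libraries. Without shUSP2-AS1 replicate 1, CDCA8 stood at -2.46 and AURKB was lowest at -2.56. CDCA8 had 713 and 725 normalized reads in shctrl and 104 and 130.3 in shUSP2-AS1, 6.14-fold lower on average (log2 fold change -2.62, SE 0.12, adjusted p = 1.80e-12, limma). Its shUSP2-AS1 replicates differed by 0.32 on the log2 scale, the widest gap between replicates among the 10 genes. BIRC5 (ENSG00000089685, chromosome 17, 78214186 to 78225636, plus strand), an inhibitor of apoptosis family protein that reads a histone mark at centromeres, stood at 2337 and 2173 in shctrl and at 427 and 489.5 in shUSP2-AS1. This was a log2 fold change of -2.30 (SE 0.08, adjusted p = 3.21e-14, limma). INCENP (ENSG00000149503, chromosome 11, 62123998 to 62153169, plus strand) was at 1647 and 1859 in shctrl and at 491 and 512 in shUSP2-AS1. The scaffold gene kept 28.6% of its shctrl level, more than the other 3 subunits (log2 fold change -1.80, SE 0.07, adjusted p = 4.93e-13, limma).

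Because the genes of the complex differ in length, their levels were compared as normalized reads per kilobase. The 4 subunit genes summed to 1883 and 1854 per kilobase in shctrl and to 365 and 396 in shUSP2-AS1. Within that sum INCENP rose in share from 21.1 ± 2.04% to 29.6 ± 0.801% (mean ± SD, n = 2 per group), and each shUSP2-AS1 replicate (30.2% and 29.04%) lay above each shctrl replicate (19.6% and 22.5%). The share of AURKB was 31.3 ± 1.12% in shctrl and 26.1 ± 1.74% in shUSP2-AS1, and that of CDCA8 was 16.0 ± 0.367% and 12.8 ± 1.29%, also with no overlap between groups. BIRC5 took 31.6 ± 1.29% and 31.5 ± 1.25%, with overlapping values. The shares are a description with no test, and they are tied to each other because they sum to the whole.

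**Figure D3:**
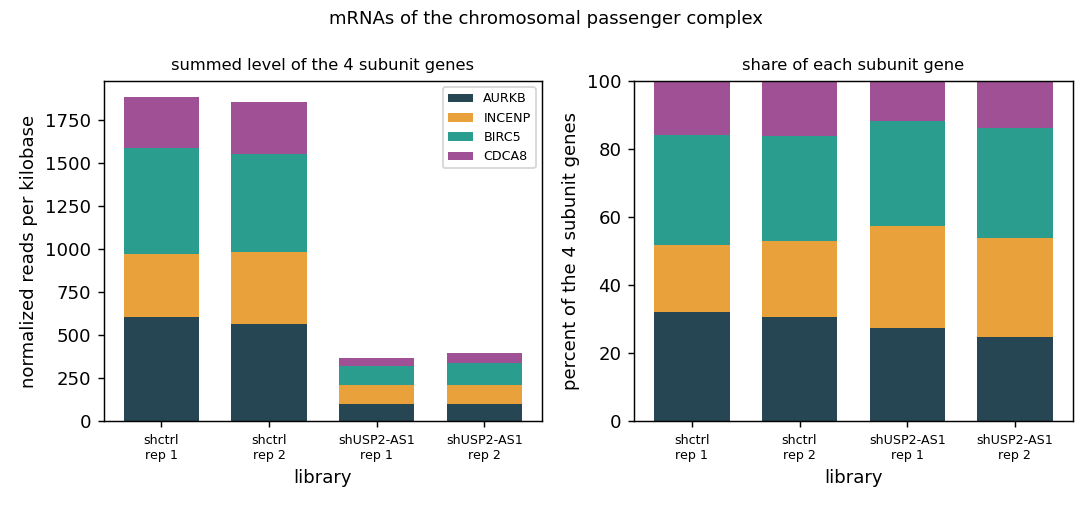
Normalized reads per kilobase of the 4 passenger complex genes in each library (left) and the same values as a percent of their sum (right). The sum was 1883 and 1854 in shctrl and 365 and 396 in shUSP2-AS1, and the INCENP share was 19.6% and 22.5% against 30.2% and 29.04%.

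The difference between subunits was tested as the log2 ratio of a gene to AURKB in each library. The size factor cancels in this ratio but for the pseudocount. The spread in this fit came wholly from the pool of genes, so the gap between a gene's own replicates did not set its interval or p. The ratio of INCENP to AURKB was 0.28 and 0.55 in shctrl and 1.13 and 1.21 in shUSP2-AS1, a gain of 0.75 (95% CI 0.57 to 0.94, adjusted p = 6.8e-16, limma). INCENP thus fell by a smaller factor than AURKB, and their ratio rose 1.69-fold. For BIRC5 the ratio was 0.79 and 0.78 in shctrl and 0.93 and 1.14 in shUSP2-AS1, a gain of 0.25 (95% CI 0.07 to 0.43, adjusted p = 0.00562, limma). Without shUSP2-AS1 replicate 2 the BIRC5 gain was 0.15 and did not pass the test (adjusted p = 0.256, limma), so that this call rests on 1 library. CDCA8 did not separate from AURKB, with a difference of -0.06 (95% CI -0.31 to 0.19, adjusted p = 0.628, limma) and overlapping groups. An error in AURKB itself enters all 3 ratios. When the standard errors of both genes were counted, the adjusted p was 3.93e-06 for INCENP, 0.0393 for BIRC5 and 0.677 for CDCA8 (limma fit across all genes).

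PLK1 (ENSG00000166851, chromosome 16, 23677656 to 23690367, plus strand) drives centrosome maturation, mitotic entry and cytokinesis. Its normalized read count was 2964 and 2962 in shctrl and 511 and 536 in shUSP2-AS1. PLK1 fell 5.66-fold (log2 fold change -2.50, SE 0.06, adjusted p = 1.70e-15, limma). PLK4 (ENSG00000142731, chromosome 4, 127880893 to 127899224, plus strand), the kinase that limits centriole number, was at 353 and 377 in shctrl and at 77.8 and 90.7 in shUSP2-AS1. Its log2 fold change was -2.10 (SE 0.14, adjusted p = 2.30e-10, limma), with 23.1% of the shctrl level left. In GENCODE release 44, 553 bases of PLK1 exons (11.6%) are also exons of the lncRNA ENSG00000261266 on the opposite strand and 58 bases (1.22%) exons of ERN2. The strand setting of the counting is not given in the sources used here, so reads from those bases cannot be told apart.

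NEK2 (ENSG00000117650, chromosome 1, 211658657 to 211675630, minus strand), which phosphorylates the linker between the centrosomes, was at 674 and 689 in shctrl and at 154 and 136 in shUSP2-AS1. The log2 fold change of NEK2 was -2.23 (SE 0.11, adjusted p = 3.45e-12, limma). TTK (ENSG00000112742, chromosome 6, 80003887 to 80042527, plus strand), the kinase that recruits checkpoint proteins to unattached kinetochores, was measured at 352 and 356 in shctrl and at 69.4 and 82.8 in shUSP2-AS1. TTK fell to 21.5% (log2 fold change -2.21, SE 0.14, adjusted p = 1.84e-10, limma). MASTL (ENSG00000120539, chromosome 10, 27154824 to 27187953, plus strand) had 626 and 678 normalized reads in shctrl and 225 and 195 in shUSP2-AS1. This was the smallest decrease of the 10 genes, 3.11-fold (log2 fold change -1.63, SE 0.10, adjusted p = 1.49e-10, limma), at rank 378 of 6812. The exons of MASTL share 443 bases (9.51%) with YME1L1 and 327 bases (7.02%) with ACBD5 on the opposite strand, whose own log2 fold changes were -0.39 and -0.58. The part of those reads in the MASTL value was not tested. Pseudogenes are annotated for AURKA (AURKAP1, AURKAP2), AURKB (AURKBP1) and NEK2 (NEK2P1, NEK2P2, NEK2P4), which were not analysed here, and any reads they share with these genes make the values uncertain to that extent.

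Per kilobase, AURKA had the highest mean of the 10 genes in both groups (789 in shctrl and 143 in shUSP2-AS1), and TTK the lowest (77.3 and 16.6). The length used is the union of annotated exons and not that of a single transcript, and the order depends on it. Without division by length PLK1 had the highest mean (2963 in shctrl and 524 in shUSP2-AS1), against 2310 and 419 for AURKA. In shctrl, PLK1 (622), BIRC5 (591) and AURKB (585) followed AURKA, and the replicate values of BIRC5 and AURKB overlapped. INCENP (394) came next, with both replicates below those of AURKB. In shUSP2-AS1 the order after AURKA was BIRC5 (120.1), INCENP (113), PLK1 (110.0) and AURKB (99.3). The replicates of BIRC5 and INCENP overlapped there, as did those of INCENP and PLK1, while both AURKB replicates lay below these 3 genes. CDCA8, NEK2, MASTL, PLK4 and TTK followed in that order in both groups. In shUSP2-AS1 the replicates of CDCA8 (48.7), NEK2 (46.7) and MASTL (45.0) overlapped, and so did those of PLK4 (18.8) and TTK.

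The kinases were set against PLK1 in the same way, as the log2 ratio within each library. MASTL gained on PLK1 by 0.86 (95% CI 0.63 to 1.10, adjusted p = 2.24e-07, limma), from -2.24 and -2.13 in shctrl to -1.18 and -1.46 in shUSP2-AS1. AURKA and AURKB kept to PLK1, with differences of 0.04 (95% CI -0.12 to 0.19, adjusted p = 0.612, limma) and -0.05 (95% CI -0.24 to 0.13, adjusted p = 0.555, limma). These intervals bound the difference and do not show that it is 0. The other kinase genes lay between, with PLK4 at 0.39 (95% CI 0.10 to 0.69, adjusted p = 0.0112, limma), NEK2 at 0.27 (0.03 to 0.51, adjusted p = 0.0323) and TTK at 0.29 (-0.01 to 0.59, adjusted p = 0.0593).

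Single libraries decided these last calls. NEK2 no longer passed without shctrl replicate 1 (adjusted p = 0.131, limma), without shctrl replicate 2 (adjusted p = 0.0933) or without shUSP2-AS1 replicate 1 (adjusted p = 0.251). PLK4 no longer passed without shctrl replicate 1 (adjusted p = 0.0834, limma) or without shUSP2-AS1 replicate 2 (adjusted p = 0.0536). TTK passed without shUSP2-AS1 replicate 1 (0.38, adjusted p = 0.0228, limma). MASTL passed in each of these fits. With the standard errors of both genes counted, the adjusted p was 1.93e-06 for MASTL, 0.0200 for PLK4, 0.0487 for NEK2 and 0.0833 for TTK (limma fit across all genes).

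**Figure D4:**
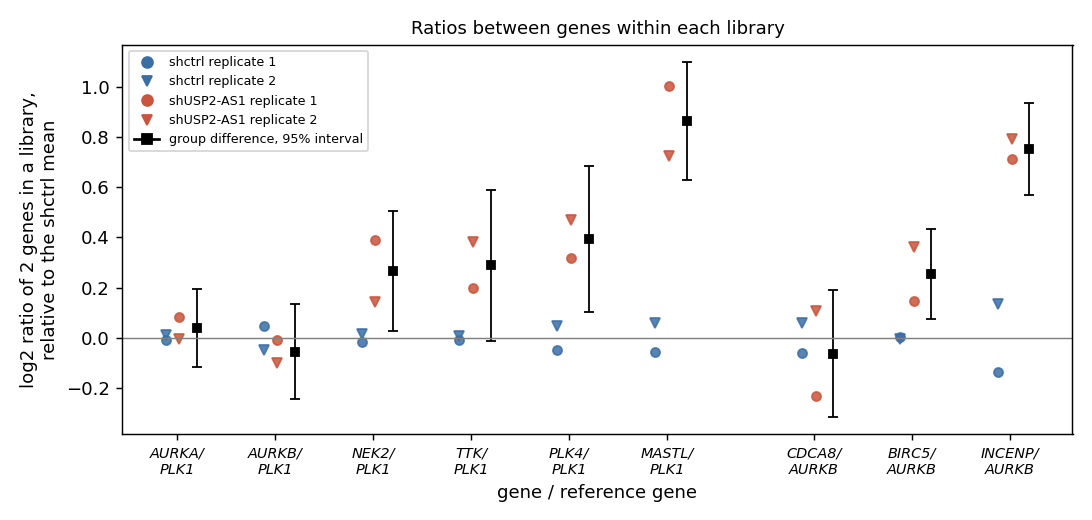
Log2 ratio of each gene to PLK1 or AURKB within a library, minus the shctrl mean of that ratio (points, with circles for replicate 1 and triangles for replicate 2), and the difference between groups with its 95% interval (black). MASTL/PLK1 (0.86) and INCENP/AURKB (0.75) lie highest, and the intervals of AURKA, AURKB, TTK and CDCA8 include 0.

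The partners and targets of these kinases were counted from lists of pathway genes. Leaving out the 10 genes, 94 of the 138 listed genes were tested, of which 50 were called lower and 1 higher, with a median log2 fold change of -1.11. A list gene could be tested only if it had passed the adjusted p of the authors, and the counts of calls are read beside the 13.5% and 16.1% of all genes tested. Counts of genes with a log2 fold change below 0 are read beside 3362 of the 6812 genes tested. Of the activators and partners of AURKA, 10 of 11 were tested, all 10 had a log2 fold change below 0 and 6 were called lower, with a median of -1.20. TPX2, which activates AURKA on spindle microtubules, was at 3780.0 and 3969 in shctrl and at 791 and 877 in shUSP2-AS1 (log2 fold change -2.22). TACC3 (-2.24) and HMMR (-2.47), which act at spindle microtubules, also fell, while CKAP5 had a log2 fold change of -0.75 and TACC2 of -0.32, which were not called.

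Recruiters of the passenger complex all had a log2 fold change below 0 in the 7 tested, of which 6 were called lower (median -2.08, 9 in the list). BUB1, whose histone mark draws the complex to centromeres, was at 1418 and 1377 in shctrl and at 222 and 223 in shUSP2-AS1 (log2 fold change -2.65). CDK1, the main mitotic kinase, fell (log2 fold change -2.40), and so did KIF20A, a kinesin needed to move the complex to the midzone (-1.97). The substrates of AURKB were called lower in 7 of 7 tested (median -2.19, 8 in the list), including the midzone kinesin KIF4A (-2.31) and the centralspindlin genes RACGAP1 (-2.06) and KIF23 (-1.48). All 9 tested of 11 docking partners and substrates of PLK1 fell (median -2.53). PKMYT1, an inhibitory kinase of CDK1, had 1280.3 and 1223 normalized reads in shctrl and 189 and 196 in shUSP2-AS1 (log2 fold change -2.69), and FOXM1 (-2.13) and CEP55 (-2.02) followed.

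Spindle checkpoint genes, which act with TTK, were called lower in 7 of 8 tested (median -2.38, 10 in the list). BUB1B (log2 fold change -2.65) and MAD2L1 (-2.21), components of the checkpoint complex, fell, and BUB3, at -0.81, was not called. Other kinases of mitosis were called lower in 10 of 13 tested, and all 13 had a log2 fold change below 0 (median -2.08, 17 in the list), with the cytokinesis kinase CIT at -2.42. The lists overlap, since BUB1, BUB1B, CDK1, CEP192, FOXM1, HASPIN, NDC80, PKMYT1 and WEE1 are each in more than 1.

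For PLK4 and centriole duplication, 6 of 11 tested were called lower (median -1.03, 14 in the list), led by STIL, the partner that activates PLK4, at -2.17. CEP85 (-1.22) and CENPJ (-1.30) also fell. Tested against a fold change of 2, 1 of the 11 passed as lower, near the 7.68% of all genes tested. The centrosome linker on which NEK2 acts had 4 of 6 genes tested and 0 called, with a median of -0.82. All 4 had an unadjusted and adjusted p under 0.05 in limma, as did 6811 of the 6812 genes tested, which were selected this way. CEP250, a linker protein phosphorylated by NEK2, was at 1212 and 1397 in shctrl and at 748 and 681 in shUSP2-AS1 (log2 fold change -0.87). With the authors' size factors edgeR and DESeq2 also called 0 of the 4, and 1 was called by DESeq2 when it set its own.

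The phosphatase PP2A-B55, which MASTL restrains through ENSA and ARPP19, was listed together with its regulators. In that list 6 of 11 genes were tested and 0 called, with a median of 0.22 over subunits and regulators. All 6 had an unadjusted and adjusted p under 0.05 in limma, as did 6811 of the 6812 genes tested. Past the fold threshold, edgeR and DESeq2 also called 0. ENSA was at 2015 and 1772 in shctrl and at 2226 and 2308 in shUSP2-AS1 (log2 fold change 0.26), and ARPP19 at 4705 and 4613 against 5208 and 5304 (0.17). The B55 regulatory subunit genes PPP2R2A and PPP2R2C had log2 fold changes of -0.39 and 0.45. PPP2R1B, also a subunit gene, was at -0.56, and FAM122A, a regulator, at 0.62. Among the phosphatases that oppose Aurora and Polo kinases (11 of 15 tested, median -0.30), CDCA2, a chromatin targeting subunit of protein phosphatase 1, fell (log2 fold change -2.13), and PPP2R5B, a B56 subunit of PP2A, was the 1 called higher. PPP2R5B was at 174 and 165 in shctrl and at 405 and 369 in shUSP2-AS1 (log2 fold change 1.19, SE 0.12, adjusted p = 3.65e-08, limma). Tested against a fold change of 2, PPP2R5B did not pass, and 7.94% of all genes tested passed as higher.

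Of 24 relatives of the 10 genes within their families, 9 were tested, 1 was called lower and 0 higher, with a median of 0.45. NEK7, a kinase of spindle assembly and of the inflammasome, was the 1 called, at 508 and 551 in shctrl and 168 and 188 in shUSP2-AS1 (log2 fold change -1.57). PLK3, a stress-responsive Polo-like kinase, was at 350 and 371 in shctrl and at 676 and 699 in shUSP2-AS1, which was not called (log2 fold change 0.93). The other relatives were not called either and had log2 fold changes of 0.82 (NEK11), 0.81 (BIRC7), 0.62 (MAST4), 0.45 (BIRC6), 0.43 (NEK9), 0.40 (BIRC3) and 0.28 (NEK6). Without the fold change threshold, 8 of the 9 relatives were called higher, while of all genes tested 50.6% were called higher and 49.4% lower.

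Factors known to act on the CCAAT and CHR elements were tested in 9 of 13 cases and called lower in 6 (median -1.08). MYBL2, the MuvB partner that activates G2/M genes, had 2621 and 2788 normalized reads in shctrl and 616 and 634 in shUSP2-AS1 (log2 fold change -2.11). FOXM1 (-2.13) and the DREAM pocket protein gene RBL1 (-1.29) fell as well. Tested against a fold change of 2, 3 of the 9 passed as lower, beside 7.68% of all genes tested.

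**Figure D5:**
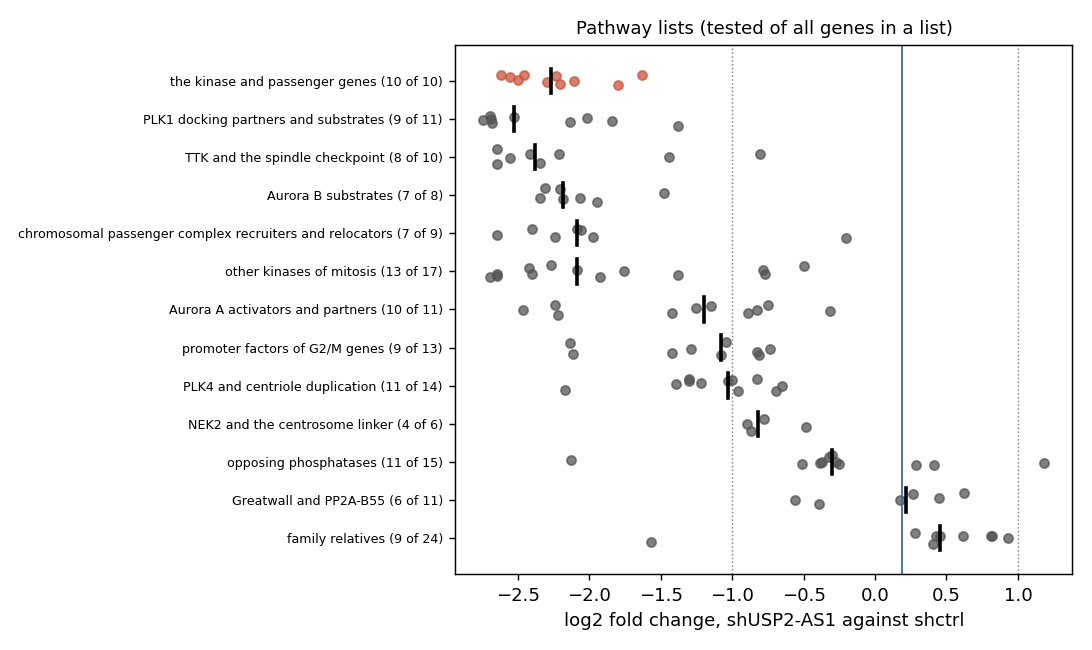
Log2 fold change (shUSP2-AS1 against shctrl, x axis) of each tested gene of the 10 kinase and passenger genes (red) and of the pathway lists (grey), with the median of each list as a black bar. Dotted lines mark -1 and 1 and the blue line the median of all genes tested (0.19), and the lists run from -2.53 (PLK1 partners) to 0.45 (family relatives).

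The genes outside the 10 whose values over the 4 libraries lay nearest to the mean profile of the 10 genes (Euclidean distance of centred log2 values) were ESPL1, SAPCD2, FANCA, SGO2 and TPX2, at distances of 0.0449 to 0.0685. ESPL1 (separase), the protease that cleaves cohesin, had 1206 and 1198 normalized reads in shctrl and 253 and 267 in shUSP2-AS1 (log2 fold change -2.20). Of the 10 genes themselves TTK lay nearest to that profile (0.132) and MASTL farthest from it (0.641). With 4 libraries in 2 groups, this distance mostly reflects the size of the fold change.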

How the data were processed

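RNA-seq libraries of 4 A549 samples (2 shctrl and 2 shUSP2-AS1) were analysed. The submitters' processing notes list HISAT2 (2.0.5), featureCounts (1.5.0-p3), DESeq2 (1.20.0) and hg38, with no roles. What the authors deposited is a signal per gene in each library, namely the reads scaled by a size factor, with the gene length and their own fold changes and p-values. Their adjusted p-value, deposited for all 6828 genes, was read only to check that every gene was under 0.05, and their fold changes were not used. A total of 105 rows had no gene symbol, and 0 columns belonged to other samples. The table's heading named the contrast of shUSP2-AS1 and shctrl but not the group of each column. Columns named scr were taken as shctrl and the other shRNA columns as shUSP2-AS1. The number in the column name was taken as the replicate.

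Genes under a mean of 10 were left out, and log2(value + 1) of the other 6812 was fitted in limma (3.58.1, R 4.3.3, eBayes with trend), with Benjamini-Hochberg adjustment over all genes tested, and a call needed an adjusted p under 0.05 together with a log2 fold change of -1 or less or of 1 or more. Fold changes are on the log2(value + 1) scale, which understates those of low genes. Whole reads were recovered by dividing by the value of 1 read (0.966 and 1.10 in shctrl, 1.05 and 0.880 in shUSP2-AS1), and 100% of values were whole within 0.01. They were used for edgeR (4.0.16, quasi-likelihood) and DESeq2 (1.42.0), which, given the authors' size factors, called 923 and 922 genes lower and 1099 each higher. The sums, 10772788 to 14120472 reads, cover listed genes and not whole libraries. Each of the 10 genes had 66 to 3067 reads per library. Ratios to AURKB and PLK1 were fitted for all genes and adjusted over all of them. On simulated reads, 200 genes were changed by more than the call threshold and the others were left unchanged. For the shUSP2-AS1 against shctrl comparison limma called 100% of the 200 and 2 others of 6807 tested. The deposited genes were instead selected as changed, so the rates of missed and false calls among them were not tested. Normalized values were divided by the deposited length, which equalled the union of GENCODE release 44 exons for all 10 genes.

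The genes and lists were chosen with earlier results of these data known. Named genes were the 10 genes, USP2-AS1, E2F1, the 3 called genes with the lowest p in each direction of a list, all tested family relatives and the 5 nearest profiles. BUB3, CKAP5, TACC2, CEP250, ENSA, ARPP19, PPP2R2A, PPP2R2C, PPP2R1B and FAM122A were named after their values were seen, as examples that were not called. Alternatives were other scalings, filters and tests, a pseudocount of 0.1, a replicate block and each library left out. The ratio test with both standard errors was chosen after seeing the data.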

Additional observations from a re-analysis of the deposited data

How the results depend on the processing

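Under 14 alternatives all 140 single values of the 10 genes kept their direction and their call, with log2 fold changes from -2.78 to -1.53 and adjusted p (limma, edgeR or DESeq2) of at most 1.59e-08. Their median was -2.38 with RLE scaling, -2.21 with upper quartile scaling and -2.38 in DESeq2 with its own size factors, and -2.37 to -2.25 without each library, against -2.27. RLE scaling and those size factors moved the median of all genes by -0.12, and keeping genes with 10 or more reads in each library moved it by -0.35, from 0.19 to -0.16. Without a fold change threshold 3362 genes were lower and 3449 higher, with 79 and 15 in the pathway lists. Against a fold change of 2, these counts were 523 and 541, and 0 list genes were higher. Leaving out 1 library, between 1 and 2 subunits passed against AURKB (1 without shUSP2-AS1 replicate 2) and between 1 and 3 kinases against PLK1 (1 without shctrl replicate 1). The change in the ratio of CDCA8 to AURKB ran from -0.23 to 0.11 and that of AURKA to PLK1 from -0.0050 to 0.082, both changing sign without shUSP2-AS1 replicate 1 and neither past the test. Without division by length, the shares in shctrl and shUSP2-AS1 were 21.7% and 17.2% for AURKB, 29.03% and 38.6% for INCENP, 37.3% and 35.2% for BIRC5 and 11.9% and 8.99% for CDCA8. A promoter window of 200 bases gave the same counts of genes with each motif (6, 5 and 0).

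The sample labels do not say whether samples of equal replicate number were handled together. The replicate differences of both groups correlated at -0.04 over 6812 genes, which does not settle whether the samples were paired. With the replicate number as a block, 922 genes were lower and 1098 higher and all 2020 calls were kept. The depth of whole libraries is not known from the table.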
